A study of Saccharomyces cerevisiae with 112 samples.

Results

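Messenger RNA of a budding yeast strain that overproduces the silencing protein Sir3 from a galactose promoter was compared between starved and growing cells. The starved group held 4 libraries of the strain called oeSir3, 2 taken after 72 h of growth to saturation and arrest and 2 taken 5 min after release into fresh galactose medium. The growing group held 6 libraries, 2 each at midlog before the arrest and at 1 and 2 doublings after release. These 10 libraries were chosen by strain and time, out of a series of 8 strains at 7 times with 2 libraries each. Wild-type strains wt1 and wt2 at the same 5 times gave 20 further libraries for a test of where the strain differed.

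Both groups carry the same genotype, that of strain THC70, a W303 derivative. The chromosomal SIR3 gene is replaced (sir3∆::HIS3) and an HA-tagged SIR3 stands under the GAL10 promoter at the ura3 locus (ura3-1::GAL10P–Sir3HA::URA3). The same label also calls the construct GAL1-Sir3-3xHA, so its promoter and tag are given in 2 ways. The mating type locus is deleted (mat∆::TRP1), as is the silent cassette HML (hml∆::kanMX), and the silent cassette HMR is altered to a form written hmr::rHMRa. The strain also carries bar1∆::hisG, lys2∆, his3-11,15, trp1-1, ade2-1, can1-100 and a leu2 mutation. It was grown at 30 °C in YPGal, where galactose is the sugar, and every starved and growing library comes from that medium. The wild types are S288C derivatives grown in YPD, with glucose, and both are MATa and disrupted for BAR1. Against the wild types, genotype, strain background and sugar change together and cannot be told apart. Sir3 was made from a galactose promoter in 1 strain, and the labels do not say that the replicates came from separate cultures.

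Sir3 binds nucleosomes with Sir2 and Sir4 and keeps the silent mating cassettes and the chromosome ends shut. Galactose enters the yeast cell through the transporter Gal2 and is turned into a glycolytic sugar phosphate by Gal1, Gal7 and Gal10. The activator Gal4 binds upstream of these genes. Without galactose Gal80 holds Gal4 inactive, and with galactose Gal3 relieves it. Cells that use up their sugar stop dividing, shut off ribosome production and switch to stored and non-fermentable carbon.

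The promoters that these results turn on are shown in RefSeq's R64 build of the S288C reference genome, so they are not read from the W303 strain itself. Each is printed 5′ to 3′ on the strand of its gene. In the galactose promoters capitals mark the ends CGG and CCG of each Gal4 site, written as CGG and CCG with any 11 bases between. The GAL10 stretch (chrII:278353-278652, minus strand) is the 300 bases before the gene start and holds 3 such sites, which it shares with the divergent neighbour GAL1. The GAL2 stretch (chrXII:289762-290061, plus strand) is 300 bases long and begins 450 bases before the start, and 2 of its 4 matches overlap. GAL7 (chrII:275478-275777, minus strand) and GAL80 (chrXIII:171344-171643, plus strand) are shown from 250 bases before to 50 after the start, with 1 site each.
GAL10: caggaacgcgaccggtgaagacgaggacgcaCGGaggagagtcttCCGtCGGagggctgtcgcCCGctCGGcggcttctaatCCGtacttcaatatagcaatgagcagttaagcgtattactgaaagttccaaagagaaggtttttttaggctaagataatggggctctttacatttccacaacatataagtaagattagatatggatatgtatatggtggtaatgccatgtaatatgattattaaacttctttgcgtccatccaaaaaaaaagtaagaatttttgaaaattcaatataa
GAL7: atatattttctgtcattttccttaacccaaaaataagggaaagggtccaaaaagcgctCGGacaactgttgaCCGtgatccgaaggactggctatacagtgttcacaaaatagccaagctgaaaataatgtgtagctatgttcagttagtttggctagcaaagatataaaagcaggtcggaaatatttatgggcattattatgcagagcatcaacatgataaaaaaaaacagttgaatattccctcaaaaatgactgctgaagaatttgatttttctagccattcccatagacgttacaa
GAL2: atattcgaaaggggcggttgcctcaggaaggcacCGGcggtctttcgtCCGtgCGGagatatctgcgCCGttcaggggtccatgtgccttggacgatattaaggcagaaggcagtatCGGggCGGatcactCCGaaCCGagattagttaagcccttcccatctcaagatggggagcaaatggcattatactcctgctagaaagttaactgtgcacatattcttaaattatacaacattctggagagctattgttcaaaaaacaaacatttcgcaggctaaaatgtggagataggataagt
GAL80: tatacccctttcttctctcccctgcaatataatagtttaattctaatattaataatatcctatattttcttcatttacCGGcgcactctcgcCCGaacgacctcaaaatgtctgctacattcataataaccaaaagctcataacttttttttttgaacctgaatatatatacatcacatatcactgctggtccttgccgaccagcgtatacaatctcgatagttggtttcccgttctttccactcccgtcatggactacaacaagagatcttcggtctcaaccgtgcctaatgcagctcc

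A Gal4 site lay in the 500 bases before the start of 9 of 10 measured genes of the galactose regulon and of 2.97% of all 5690 promoters. In the shorter window of 250 bases before to 50 after the start, 4 of 10 held one, against 1.41% of all. The longer window was chosen after the short one had been searched, and PGM2 was the regulon gene without a match in it.

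A pair of promoters stands for the stress and the growth programmes, again from 250 bases before to 50 after the start. HSP12 (chrVI:107006-107305, plus strand) has the stress response element CCCCT in capitals, 2 copies on the printed strand. NSR1 (chrVII:807607-807906, minus strand) has in capitals the PAC motif, which is GATGAG or its complement CTCATC, and the RRPE motif AAAATTTT. Both are known from genes of ribosome assembly.
HSP12: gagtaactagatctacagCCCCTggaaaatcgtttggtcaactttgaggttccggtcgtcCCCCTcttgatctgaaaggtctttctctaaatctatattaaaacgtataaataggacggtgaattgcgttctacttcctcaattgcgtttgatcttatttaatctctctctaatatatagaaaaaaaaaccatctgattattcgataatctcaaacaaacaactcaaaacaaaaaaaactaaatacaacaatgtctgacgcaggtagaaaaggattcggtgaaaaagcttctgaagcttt
NSR1: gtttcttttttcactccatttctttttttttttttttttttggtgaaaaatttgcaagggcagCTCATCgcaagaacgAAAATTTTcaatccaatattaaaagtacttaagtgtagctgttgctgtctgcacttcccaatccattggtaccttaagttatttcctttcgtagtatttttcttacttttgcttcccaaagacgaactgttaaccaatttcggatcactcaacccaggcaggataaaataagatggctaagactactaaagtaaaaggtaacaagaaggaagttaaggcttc

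Coverage was far lower in starved cells on the scale of the fission yeast RNA that had been added to each extract. The level of the median gene, as log2 of its spike-in scaled coverage, was -3.57 and -4.44 in the starvation libraries and -2.73 and -2.04 at 5 min. It was 1.36 and 0.70 at midlog, 0.42 and 0.38 at 1 doubling and 0.79 and 0.77 at 2 doublings. All 4 starved libraries lay below all 6 growing ones. The mean was -3.20 ± 1.04 (SD, n = 4) in starved and 0.74 ± 0.35 (SD, n = 6) in growing libraries, a 15.3-fold lower level (difference -3.93, two-sided exact permutation p = 0.00952, the smallest that 4 against 6 libraries can give). Each group pools times with 2 libraries each, so the SD includes the difference between times. The permutation treats libraries of different times as interchangeable, so its p does not rest on 4 and 6 replicates of 1 condition. The spike-in was added per mass of total RNA, so this is mRNA relative to total RNA. Fewer cells with mRNA and less mRNA in each cell cannot be told apart.

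**Figure D1:**
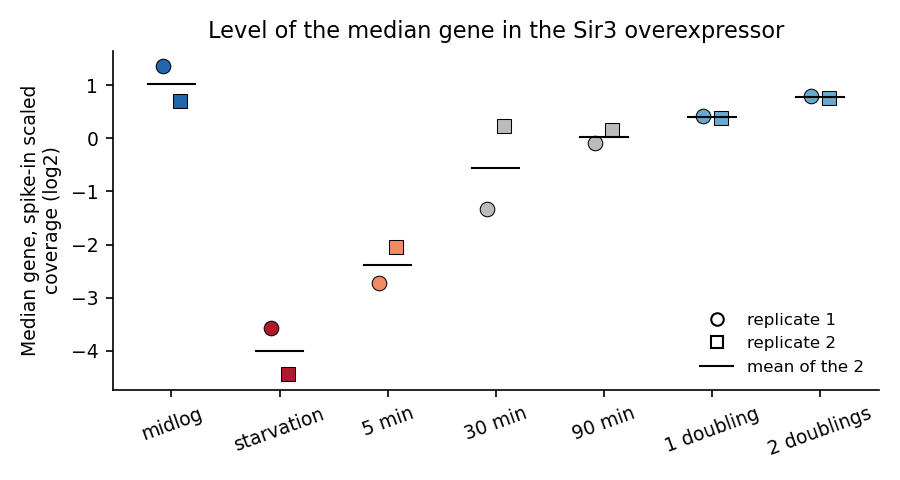
Level of the median gene in each oeSir3 library, as log2 of spike-in scaled coverage, by time. Circles and squares are replicates 1 and 2 and bars their mean. The starvation and 5 min libraries sit between -4.44 and -2.04 and the midlog and doubling libraries between 0.38 and 1.36; the 30 and 90 min libraries belong to neither group.

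The starved libraries were also shallower, with a median coverage over all genes of 9 to 44 reads against 50 to 79 in growing libraries, and the starvation libraries were the shallowest. Between 5146 and 5604 genes were detected per library. Replicates correlated across genes at 0.934 to 0.977. Libraries correlated at 0.944 to 0.983 within growing, at 0.738 to 0.950 within starved, and at 0.163 to 0.470 between starved and growing, which are descriptions across genes. The slope of coverage with gene length overlapped between the groups, at -0.72 to -0.40 in starved and -0.61 to -0.38 in growing libraries (log2 per log2).

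To see which genes changed beyond that common shift, each library was divided by its median gene, and levels below are coverage relative to the median gene, so 1 is the level of the median gene. Coverage is per base and can be compared between genes. Changes are log2 of starved over growing ± SE, after 0.1 was added to each level, from limma with Benjamini-Hochberg adjusted p-values over 5267 genes. A gene is called higher or lower in starved cells at an adjusted p under 0.05 and a log2 change of at least 1. On this scale 1482 genes were higher (28.1%) and 1715 were lower (32.6%). Counts within gene lists below are to be read against these shares. The groups did not overlap for 1405 genes that lay higher (26.7%) and 1668 that lay lower (31.7%). Genes were tested where coverage was over 0.15 of the library's median over all genes in at least 4 of the 10 libraries. A gene near 0 throughout 1 group could pass this filter only through the other group, so its direction was set by the filter. On the spike-in scale as deposited 110 genes were higher (2.09%) and 4835 lower (91.8%), with a median change of -3.48 over all genes. With libraries centred on the upper quartile the counts were 1227 higher and 1988 lower. With starvation alone as the starved time 1709 were higher and 1834 lower, and with 5 min alone 1217 and 1550. "Higher" below therefore means higher than the median gene's own change, and most such genes fell against the spike-in.

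The galactose pathway genes GAL1, GAL2, GAL7 and GAL10, at 64.2 to 191 times the median gene in growing cells, fell to 0 to 4.29 times. Of 10 measured members of the galactose regulon 7 were lower and 2 higher in starved cells, with a median of -3.48 against -0.13 for all genes tested. On the spike-in scale all 10 were lower.

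GAL1, the galactokinase, stood at 86.8 and 93.8 at midlog, 109 and 107 at 1 doubling and 105 and 72.7 at 2 doublings. In starved cells it was at 0.52 and 0.38 at starvation and 0.27 and 0.10 at 5 min. No starved library came near a growing one, and the change was -7.96 ± 0.24 (adjusted p = 1.36e-08). GAL10, the epimerase that shares the printed promoter with GAL1, went from 64.2 to 100.7 in growing cells to 0.04 and 0.13 at starvation and 0.53 and 0.12 at 5 min (-8.31 ± 0.32).

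GAL2, the galactose transporter, had the largest fall of all genes with a symbol, -8.72 ± 0.27 (adjusted p = 1.46e-08). Its growing libraries ranged from 73.6 to 111, and its starved libraries held 0.15 and 0 at starvation and 0.23 and 0.14 at 5 min. GAL7, the transferase of the pathway, differed from these in time. It was at 0.41 and 0.13 at starvation and already at 4.29 and 3.49 at 5 min, still far under its 102 to 191 in growing cells. Its rise within 5 min was 3.55 ± 0.45 (adjusted p = 3.09e-04). GAL7 was the 1 regulon gene called higher at 5 min than at starvation. GAL1 (-1.01, adjusted p = 0.0484) and PGM2 were called lower. These calls are relative to the median gene, which was itself higher at 5 min on the spike-in scale. A fall of GAL1 against the spike-in was not tested.

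The regulators of the pathway moved less. GAL3, the galactose sensor, fell from 5.33 to 7.42 in growing cells to 0.20 to 0.52 (-3.83 ± 0.25), and GAL80, the repressor, from 7.25 to 10.5 to 0.44 to 1.67 (-3.14 ± 0.30). GAL4, the activator, was at 0.27 to 0.40 in growing cells and at 0.35 to 0.88 in starved cells, and its change of 0.45 ± 0.17 was not called. PGM2, the main phosphoglucomutase, fell by 1.85 on the log2 scale. Those called higher were the glucose-sensing regulator gene MTH1 (1.17 ± 0.23) and the cyclin gene PCL10 (1.06 ± 0.22), and both flipped on the spike-in scale, to -2.72 and -2.74. The aldose reductase gene GCY1, another gene with a Gal4 site within 500 bases of its start, fell with the pathway, from 23.6 to 42.8 to 0.06 to 0.19 (-7.15 ± 0.16). Among all genes the site was not particular to those that fell. From 250 bases before to 50 after the start it lay in 1.6% of 1684 promoters of genes called lower. It lay in 1.38% of 1453 of genes called higher and in 1.43% of genes tested.

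**Figure D2:**
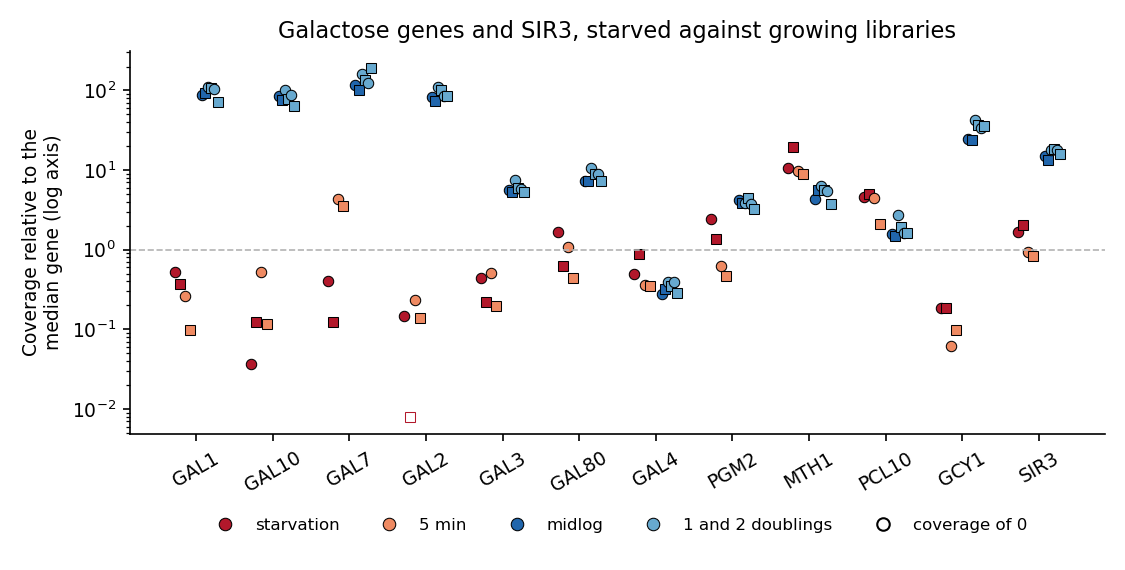
Coverage relative to the median gene (log axis, dashed line at 1) of galactose genes, GCY1 and SIR3 in each of the 10 libraries; circles are replicate 1, squares replicate 2, and the open symbol is coverage of 0, drawn at 0.008. GAL1, GAL10, GAL7 and GAL2 sit at 64.2 to 191 in growing libraries and at 0 to 4.29 in starved libraries, while GAL4 overlaps between the groups.

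SIR3 itself, driven by a galactose promoter in this strain, was high in growing and low in starved cells. SIR3 coverage was 14.8 and 13.4 at midlog, 18.1 and 18.6 at 1 doubling and 17.7 and 15.8 at 2 doublings. At starvation it was 1.67 and 2.06, and at 5 min 0.94 and 0.84. The groups were well apart, with a change of -3.56 ± 0.17 (adjusted p = 1.29e-07) on the median-gene scale and -7.31 on the spike-in scale. Even the lowest starved library lay above every wild-type library, where SIR3 ranged from 0.13 to 0.51 in starved and from 0.17 to 0.58 in growing cells. Wild-type levels here and below are relative to the median of the 5507 genes tested with the wild types included. Those of oeSir3 are relative to the median of its own 5267, so the scales are not quite the same. SIR1, which helps to start silencing at the cassettes, rose relative to the median gene (1.42 ± 0.15, spike-in -1.93), as did SIR4 (1.04 ± 0.15, spike-in -2.24), which sat at 0.23 to 0.35 in growing and 0.33 to 1.25 in starved cells. SIR2, the histone deacetylase, at 0.31 to 1.04 in starved against 0.38 to 0.56 in growing cells, was not called (0.37 ± 0.24).

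HMRA1, the a1 gene of the HMR cassette, was nearly silent in growing cells and abundant in starved ones. Its coverage was 0.01 and 0 at midlog, 0.06 and 0.02 at 1 doubling and 0.03 and 0 at 2 doublings. It was 27.3 and 54.8 at starvation and 32.0 and 11.2 at 5 min. The lowest starved library lay far above the highest growing one, but HMRA1 could pass the filter on low values only through the starved libraries. Its growing levels lay below the 0.1 added to each level, so the size of the change depends on that 0.1. The change was 7.86 ± 0.31 (adjusted p = 4.32e-08) relative to the median gene and 5.82 on the spike-in scale, so it rose on both. In the libraries of the strain between the groups it was 15.6 and 4.77 at 30 min and 3.01 and 2.66 at 90 min, when SIR3 was at 1.87 and 2.37 and then at 16.6 and 5.97.

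The sequence of a1 is also that of MATa1, which this strain lacks by its label and the MATa wild types have. In those strains HMRA1 was at 12.2 to 33.8 in starved and 2.17 to 57.3 in growing libraries, and the change differed from that of oeSir3 by 6.25 ± 0.64 (adjusted p = 1.98e-07). The wild-type reads can come from either locus and cannot be told apart.

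**Figure D3:**
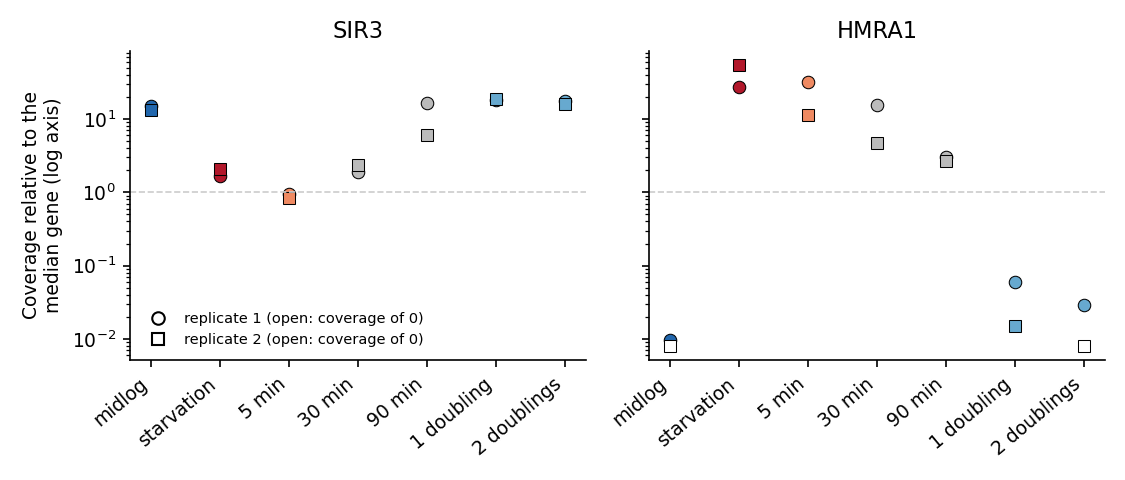
SIR3 and HMRA1 coverage relative to the median gene (log axis, dashed line at 1) at 7 times in the oeSir3 strain; circles are replicate 1, squares replicate 2, and open symbols are coverage of 0, drawn at 0.008. SIR3 is at 0.84 to 2.06 in the 4 starved libraries and 13.4 to 18.6 in growing ones, where HMRA1 is at 0 to 0.06 against 11.2 to 54.8 in starved libraries.

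Genes near the chromosome ends, the other main site of Sir proteins, were examined by distance in the R64 build, in bins chosen after the data were seen. Of 76 genes within 10 kb of an end only 23 passed the filter on low values, and 11 of these were higher and 3 lower (47.8% and 13.0%). From 10 to 20 kb, 31 of 71 tested genes were higher and 12 lower (43.7% and 16.9%), and beyond 50 kb 27.8% of 4693 were higher. Whether the change differed from that of the wild types was tested gene by gene in 1 fit of 30 libraries with 5507 genes tested, in which 1195 genes changed more upward in oeSir3 (21.7%) and 1162 more downward (21.1%). In that fit 7 of 35 genes within 10 kb changed more upward and 6 more downward, and of 80 genes from 10 to 20 kb 11 changed more upward and 19 more downward. The wild-type median change in that fit was 0.43 within 10 kb and 0.76 from 10 to 20 kb. A gene that passed the filter only through the group where it is high had to differ, so the bins with few genes tested are descriptions.

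The mating genes were checked against the label. Genes of a cells were on in growing cells, with MFA2, an a-factor gene, at 20.7 to 36.3 and STE2, the receptor for alpha-factor, at 6.10 to 7.79. Of 7 measured a-specific genes 5 were lower in starved cells, including MFA2 (-2.36 ± 0.25), STE2 (-3.07 ± 0.21), STE6, the a-factor exporter (-3.97 ± 0.12), and AGA2, an agglutinin subunit (-3.57 ± 0.17). MFA1 (0.53 ± 0.18) was not called. Of 10 haploid-specific genes 8 were lower and none higher, among them FAR1, the pheromone arrest gene (-4.88 ± 0.20), HO, the endonuclease of mating type switching (-3.12 ± 0.25), and GPA1, the pheromone G protein (-2.53 ± 0.18). Of 4 measured alpha-specific genes 2 did not pass the filter on low values, the alpha-factor genes MF(ALPHA)1 and MF(ALPHA)2. They were at 0 to 0.03 in growing and at most 0.28 in starved cells. The others passed it: STE3, given below, and SAG1, which was not called (-0.23). SAG1 was thus over 0.15 of the median over all genes in at least 4 libraries.

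A few genes went against the labels or the rest of their group. BAR1, labelled as deleted, was detected in every library, at 0.64 to 1.18 in growing and 0.91 to 3.59 in starved cells (1.27 ± 0.21, spike-in -2.42). BAR1 reads were present in the wild types too, at up to 4.06, although their labels also give it as disrupted. LYS2, labelled as deleted, was at 0 to 0.06 in all 10 libraries. The receptor gene of alpha cells, STE3, was at 0.03 to 0.05 in growing and 0.77 to 1.5 in starved cells (3.0 ± 0.13). It passed the filter on low values only through the starved libraries, so the lack of overlap was set by the filter.

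Of all genes with a symbol ADY2, an acetate transporter, rose most, with coverage of 1299 and 1182 at starvation and 246 and 230 at 5 min, and never over 0.07 in growing cells (11.90 ± 0.17, adjusted p = 6.20e-10). ACS1, the acetyl-CoA synthetase of glucose-free growth, was at 121 and 107 at starvation, 31.3 and 20.4 at 5 min and at most 0.10 in growing cells (8.64 ± 0.20). CTA1, the peroxisomal catalase, was at 147, 270, 49.2 and 73.4 in the same order and at most 0.10 in growing cells (9.22 ± 0.22). Relative to the median gene, both 5 min libraries lay below both starvation libraries in all these genes. The median gene itself rose between these times on the spike-in scale, from -3.57 and -4.44 to -2.73 and -2.04. The order therefore need not hold on that scale, where these times were not compared. Their growing levels lay at or below the 0.1 added to each level, so the size and rank of their changes depend on that 0.1. They could pass the filter on low values only through the starved libraries.

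SIP18 and GRE1, hydrophilins that protect dry cells, rose by 9.62 ± 0.62 and 9.10 ± 0.68, with a wide spread between replicates: SIP18 was at 173 and 1654 at starvation and 117 and 437 at 5 min. The short ORF gene DPC7 showed the same spread, 193 and 1805 at starvation and 97.3 and 240 at 5 min (9.80 ± 0.59). Also among the 12 largest rises were SPS100, a spore wall gene (9.28 ± 0.19), HXT5, the hexose transporter of slow growth (8.55 ± 0.20), MOH1 (7.45 ± 0.27), CRS5, a metallothionein (7.39 ± 0.36), and NDE2, a mitochondrial NADH dehydrogenase (7.38 ± 0.18). These 11 genes and HMRA1 rose on the spike-in scale as well, by 3.70 to 9.25.

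Most tested genes of fatty acid oxidation were higher in starved cells. Of 18 tested genes 17 were higher and none lower, where 28.1% and 32.6% of all genes were. Their median was 4.24, and 8 were higher on the spike-in scale. Members near 0 in growing cells, such as CTA1, could pass the filter on low values only through the starved libraries and so had to lie higher. The count is therefore a description, and PXA2 did not pass the filter. POT1, the peroxisomal thiolase, rose by 7.34 ± 0.20 from at most 0.13 to 9.76 to 53.4, and FOX2, the multifunctional enzyme before it, by 6.59 ± 0.22. SPS19, an auxiliary reductase for unsaturated fatty acids, rose by 6.34 ± 0.40. Against the wild types 13 of 19 tested genes changed more upward in oeSir3 and 1 more downward, where 21.7% and 21.1% of all genes did.

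In gluconeogenesis and the glyoxylate cycle 19 of 26 genes were higher and 3 lower, with a median of 1.75. Besides ADY2 and ACS1, ADH2, the alcohol dehydrogenase that consumes ethanol, rose by 6.40 ± 0.21, from at most 0.76 to 22.6 to 100.5. JEN1, the lactate transporter, rose by 3.97 ± 0.21, and its spike-in change was 0.07. The members called against that direction were CYB2 and DLD1, mitochondrial lactate dehydrogenases (-3.38 ± 0.18 and -2.20 ± 0.20), and ACH1, a CoA transferase (-1.03 ± 0.24). ACH1 was at 1.22 and 0.50 at starvation but at 4.30 and 2.90 at 5 min, where the growing range was 3.10 to 4.22, so the groups overlapped.

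The mitochondrial genes of respiration went the other way. Of 15 TCA cycle genes 10 were lower and 3 higher in starved cells (median -1.80), and of 32 respiratory chain and ATP synthase genes 21 were lower and 3 higher (median -1.97). ATP2, the beta subunit of the ATP synthase, was at 24.3 to 37.1 in growing cells. It was at 0.41 and 0.50 at starvation and at 0.28 and 0.24 at 5 min, a change of -6.02 ± 0.18 (adjusted p = 1.09e-08) with no overlap. NDE1, the NADH dehydrogenase that pairs with the risen NDE2, fell by 5.21 on the log2 scale, and QCR2, a core subunit of complex III, by 5.07. Malate dehydrogenase MDH1 (-3.85 ± 0.32), fumarase FUM1 (-3.52 ± 0.28) and the complex II subunit SDH3 (-3.49 ± 0.18) fell as well. The exceptions that were higher were CIT3, a second mitochondrial citrate synthase (6.11 ± 0.14), KGD1 (1.40 ± 0.18, spike-in -2.44), SDH2 (1.7 ± 0.23, spike-in -2.23), COX13 (1.38 ± 0.43, spike-in -2.54), CYC7, the minor cytochrome c (1.94 ± 0.74, spike-in -1.84), and NDE2. SDH3 and SDH2, subunits of the same enzyme, changed in opposite directions relative to the median gene, while on the spike-in scale both were lower.

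In the wild types the median change was 1.84 for the TCA cycle and 2.42 for the respiratory chain. The counts of all genes that changed more upward and more downward than in the wild types were 708 and 1584 when centred on the upper quartile, 43 and 3030 on the spike-in scale, and 644 and 825 with 5 min alone as the starved time. Of the TCA genes 13 of 15 changed more downward in oeSir3, and of the respiratory genes 28 of 32. ATP2 was at 7.33 to 25.2 in starved and 3.93 to 9.02 in growing wild-type cells, and its change differed by -7.0 ± 0.35 (adjusted p = 5.26e-12). Growing oeSir3 cells, at 24.3 to 37.1, stood above every growing wild-type library.

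The 5 largest differences were those of GCY1 and of galactose genes, and the wild types held little GAL1, GAL2, GAL7 and GAL10 in either state. GCY1 had the largest, -10.04 ± 0.32 (adjusted p = 4.17e-15), and it rose in starved wild types, from 0.49 to 1.18 to 3.01 to 11.0, while it fell in oeSir3. GAL2 differed by -9.55, GAL7 by -8.50, GAL10 by -8.36 and GAL1 by -8.06. The next were DMO1 (-7.34 ± 0.58), whose locus tag YJR120W neighbours the YJR121W of ATP2, and FRE7, a copper reductase gene (-7.18 ± 0.42). FRE7 rose in starved wild types by 2.30 and fell in oeSir3 by 4.83.

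On the upward side CTA1 and ADY2 differed by 6.36 ± 0.31 and 6.31 ± 0.28. CTA1 was at 0.23 to 3.96 and ADY2 at 1.49 to 21.5 in starved wild types, far below their oeSir3 levels of 49.2 to 270 and 230 to 1299. ALT2, an alanine transaminase homologue, differed by 4.92 ± 0.40, and MIH1, the Cdc28 phosphatase of mitotic entry, by 4.76 ± 0.33. MIH1 went in oeSir3 from 0.29 to 0.56 to 6.22 to 47.2, while the wild types stayed at 0.18 to 0.93 in starved and 0.27 to 0.73 in growing cells. FAA4, a fatty acyl-CoA synthetase, rose in oeSir3 by 2.84 (spike-in -1.05) and fell in the wild types by 1.73, and SRL4 differed by 4.63 ± 0.34. The glucose transporter gene HXT1 was at 0 in all growing oeSir3 libraries and at 3.46 to 12.5 in growing wild types.

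**Figure D4:**
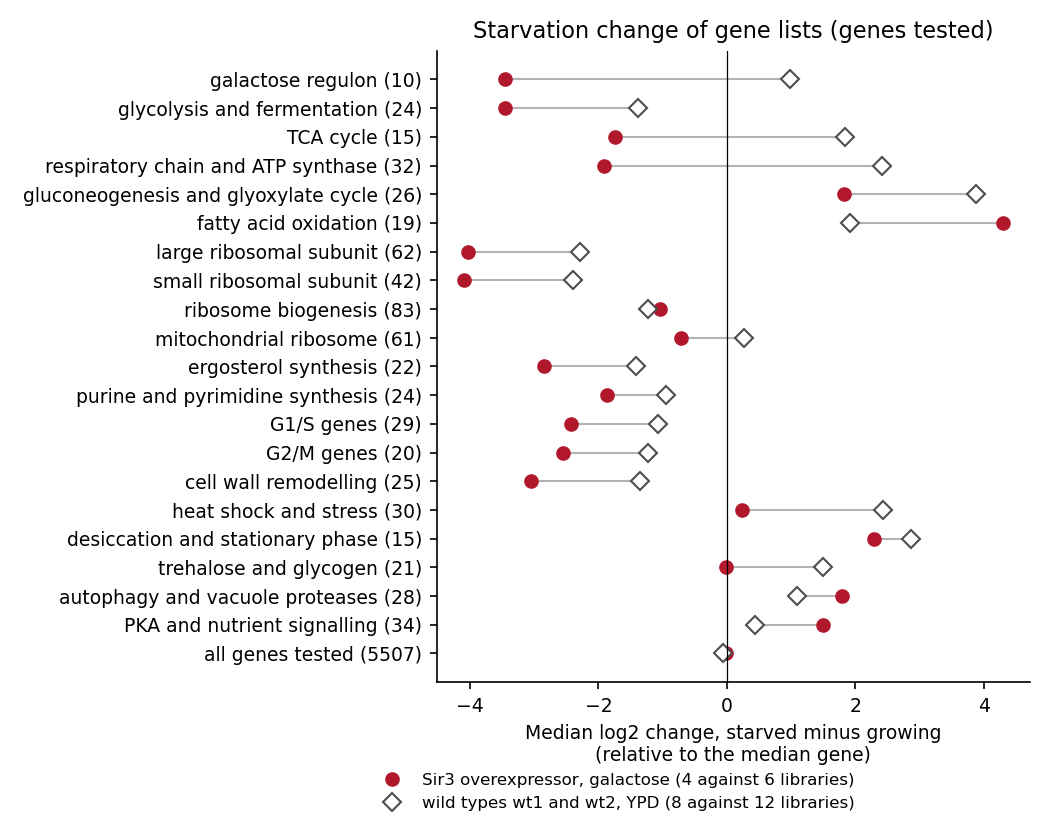
Median log2 change, starved minus growing relative to the median gene, of 20 gene lists and of all genes tested, in the oeSir3 strain in galactose (filled circles) and in the wild types in YPD (open diamonds), from 1 fit of 30 libraries with the number of genes tested in brackets. The TCA cycle lies at -1.73 in oeSir3 against 1.84 in the wild types and the respiratory chain at -1.91 against 2.42, and fatty acid oxidation lies at 4.29 against 1.92.

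Glycolysis and fermentation genes were mostly lower. Of 24 genes 15 were lower and 2 higher, with a median of -3.49. ENO2, the main enolase, fell from 34.4 to 52.2 to 0.04, 0.31, 0.02 and 0.16 (-7.77 ± 0.35), and PGK1, phosphoglycerate kinase, from 31.8 to 58.1 to 0.04 and 1.06 at starvation and 0.03 and 0.18 at 5 min (-7.32 ± 0.53). TDH3, the main glyceraldehyde-3-phosphate dehydrogenase, was the most abundant of them in growing cells at 127 to 172 and was at 0.20 to 8.31 in starved cells (-6.82 ± 0.58). GPM1, phosphoglycerate mutase, fell by 6.80 on the log2 scale. In PGK1, TDH3 and GPM1 starvation replicate 2 was the highest starved library, and it stayed below every growing one. Those called higher were GLK1, glucokinase (1.17 ± 0.37, spike-in -2.74), and PDC6, a minor pyruvate decarboxylase (2.21 ± 0.21), listed at 0 to 0.03 in growing and 0.13 to 1.27 in starved cells. PDC6 passed the filter on low values only through the starved libraries. The nitric oxide dioxygenase gene YHB1 (-7.38 ± 0.18) and the mannoprotein gene SRL1 (-7.11 ± 0.19) were also among the 12 largest falls. Compared with the wild types, 16 of 24 glycolysis genes changed more downward and 1 more upward.

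Of 29 tested heat shock and stress genes 11 were higher and 11 lower (median 0.05), where 28.1% and 32.6% of all genes were. HSP26, a small heat shock protein, rose from 0.49 to 1.32 to 31.7 to 88.0 (6.46 ± 0.33), DDR2, a general stress gene, by 5.52 ± 0.21, and MSC1 by 6.40 ± 0.37. HSP12, whose promoter is printed above, rose by 4.09 ± 0.62 and was at 39.4 and 171 at starvation, 9.89 and 90.3 at 5 min and 1.52 to 8.90 in growing cells. Its change on the spike-in scale was 0.21.

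Among the 11 lower members SSA2, a cytosolic Hsp70, went from 16.6 to 25.7 to at most 0.19 (-6.66 ± 0.21). HSC82, the constitutive Hsp90, fell by 4.44 on the log2 scale, SSB1, the ribosome-bound Hsp70, by 3.76 and SSA1 by 3.31. HSP60 (-2.49 ± 0.23), HSP10 (-2.36 ± 0.34), SSE1 (-1.98 ± 0.25), HSP82 (-1.68 ± 0.33) and HSP104, the disaggregase (-1.14 ± 0.27), were called lower too, as were DDR48 (-3.06 ± 0.24) and GPH1. GPH1, glycogen phosphorylase, was at 0.88 to 2.04 in growing and 0.04 to 0.19 in starved oeSir3 cells (-2.78 ± 0.13), but rose in starved wild types from 0.03 to 0.18 to 0.44 to 2.60, and the difference was -5.23 ± 0.34 (adjusted p = 2.99e-10). Of the 30 stress genes tested for a difference 17 changed more downward in oeSir3 and 2 more upward.

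Storage and recycling genes were mixed or higher. In trehalose and glycogen metabolism 9 of 21 were higher and 7 lower, where 28.1% and 32.6% of all genes were. GIP2, a glycogen phosphatase subunit, rose by 4.87 ± 0.21, and PGM1, the minor phosphoglucomutase, fell by 3.45 on the log2 scale. Among 14 tested genes of desiccation and stationary phase 9 were higher and 2 lower (median 2.83), led after SIP18 and GRE1 by SPG5 (6.98 ± 0.31) and the vitamin B6 gene SNZ1 (5.99 ± 0.18). Of 28 autophagy and vacuole protease genes 19 were higher and 3 lower. ATG8, the ubiquitin-like protein of the autophagosome, was at 44.7 and 197 at starvation, 9.13 and 82.2 at 5 min and 0.85 to 1.78 in growing cells (5.14 ± 0.61), ATG34 rose by 5.19 ± 0.20 and ATG9 by 3.87 ± 0.15. Lower were the protease genes APE3 (-1.67 ± 0.20) and APE1 (-1.58 ± 0.13) and the inhibitor gene PBI2 (-1.31 ± 0.29).

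Among 33 genes of protein kinase A and nutrient signalling 21 were higher and 2 lower (median 1.43). IGO1 and IGO2, which protect mRNAs in quiescent cells, rose by 3.18 ± 0.27 and 3.14 ± 0.41 (spike-in -0.71 and -0.76). RAS1 (-1.75 ± 0.20) and the exchange factor gene CDC25 (-1.20 ± 0.16) were lower. No member of this list was higher on the spike-in scale and 26 were lower.

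The protein synthesis machinery fell. Of 62 tested genes of the large ribosomal subunit 60 were lower and none higher (median -4.08), and of 42 of the small subunit 40 were lower and none higher (median -4.14). The table holds 79 and 57 such genes, and 17 and 15 did not pass the filter on low values. Most are nearly identical pairs, so how reads were shared between copies bears on each value. RPL22A went from 30.0 to 41.9 to 0.22 and 0.06 at starvation and 2.20 and 2.43 at 5 min (-5.55 ± 0.23), and RPS22A from 16.5 to 46.0 to 0 and 0.13 at starvation and 0.88 and 0.96 at 5 min (-6.24 ± 0.37). RPL26B (-5.63 ± 0.51) and RPS11B (-5.78 ± 0.30) gave the same picture. Of 29 translation factor genes 17 were lower, led by TEF4, elongation factor 1B gamma (-4.46 ± 0.30), and 1, SUI1, was higher (1.36 ± 0.41, spike-in -2.56).

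Division and membrane genes were lower. CLN1 and CLN2, the G1 cyclins, and TOS6 were listed at 0 in all 4 starved libraries, against 1.59 to 2.68, 2.22 to 4.28 and 4.57 to 7.5 in growing cells. Such genes could pass the filter on low values only through the growing libraries and so had to lie lower. The same holds for CLB2 and DSE2 below. The G1/S and G2/M counts include such genes and are descriptions. Of 29 genes expressed at G1/S 24 were lower and 1 higher, PSF2 (1.79 ± 0.31, spike-in -1.91), a subunit of the replication helicase complex. Of 20 G2/M genes 16 were lower and 2 higher. CLB2, a mitotic cyclin, was at 0 in starved and 0.89 to 1.13 in growing cells, but its fitted change was 0.18 when the value standing for coverage of 0 was kept as deposited. ASE1, a spindle protein, was higher (1.99 ± 0.17, spike-in -1.60). DSE2, a daughter cell wall enzyme, fell from 7.74 to 12.5 to at most 0.07 (-6.10 ± 0.19), and UTR2, a wall cross-linking enzyme, by 6.32 on the log2 scale. Wall genes that rose instead were GSC2, the alternative glucan synthase (4.48 ± 0.29), and CHS1, the repair chitin synthase (2.21 ± 0.30, spike-in -1.61).

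In ergosterol synthesis 20 of 22 genes were lower and 1 higher (median -2.90). ERG6 fell by 6.14 on the log2 scale and ERG25 by 5.35, while ERG5 was at 0 in all starved libraries and 3.43 to 4.54 in growing ones. ERG5 could pass the filter on low values only through the growing libraries, so its direction was set by the filter. HMG2, the second HMG-CoA reductase, rose by 2.62 ± 0.16 (spike-in -1.07). Of 24 purine and pyrimidine genes 16 were lower and 1 higher, URA10 (2.35 ± 0.23, spike-in -1.13). Of 27 sulfur amino acid genes 11 were lower and 5 higher, where 32.6% and 28.1% of all genes were. The lower ones were led by MET17 (-5.65 ± 0.16) and CYS3 (-5.35 ± 0.19). Of the higher ones MET4, the activator of the pathway, rose by 2.69 ± 0.15 (spike-in -1.09).

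The starved group was not uniform, since 5 min in fresh galactose changed many mRNAs. Between starvation and 5 min, relative to the median gene, 918 genes were higher at 5 min (17.4%) and 1255 lower (23.8%). Of 83 tested ribosome assembly genes 70 were higher at 5 min and 1 lower, with a median of 2.20. Fewer of the same 83 were called against growing cells, 47 lower and 1 higher, NOP16 (1.94 ± 0.43, spike-in -1.94).

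NSR1, the nucleolin homologue whose promoter is printed above, was at 0 in both starvation libraries and at 15.7 and 14.3 at 5 min, above its 5.62 to 6.91 in growing cells. It was called higher at 5 min (adjusted p = 9.67e-07), and since it was listed at 0 at starvation no fold is given. NOP1, fibrillarin, went from 0.07 and 0.06 to 13.0 and 7.69 (5.91 ± 0.31), and NOP58, a core snoRNP protein, from 0 in both to 3.92 and 3.67 (adjusted p = 1.96e-06). GAR1, a pseudouridylation guide protein, went from 0.04 and 0.13 to 2.20 and 2.88 and stayed below its growing range of 7.52 to 9.57.

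Other early genes overshot the growing level. GPP2, a glycerol phosphatase, went from 0 and 0.06 to 31.6 and 22.6, against 1.56 to 2.16 in growing cells, and had the largest rise (7.72 ± 0.32). ICY1 went from 0.48 and 0.56 to 53.4 and 57.3 (6.48 ± 0.27), and STP4, a zinc finger protein gene, from 0.19 and 0.25 to 26.8 and 16.7 (6.07 ± 0.47). The marker genes URA3 and HIS3, present on the transgene and the sir3 deletion, went from 4.20 and 2.31 to 43.3 and 24.5 and from 0.59 and 0.63 to 12.8 and 6.21. Over both starved times URA3 (0.25 ± 0.25) and HIS3 (-0.03 ± 0.23) were not called. Of the other marker genes LEU2 (-1.97 ± 0.32) was lower, and ADE2 (0.45 ± 0.16), CAN1 (0.09 ± 0.16) and TRP1 (-0.95 ± 0.31) were not called.

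The large ribosomal subunit had 51 of 62 genes higher at 5 min and 1 lower (median 2.57), and the small subunit 34 of 42 higher and none lower (median 2.22). Of the genes with a symbol IGD1, an inhibitor of glycogen debranching, fell most within 5 min (-2.56 ± 0.28), followed by ATG42, GPT2, YET1 and YHC3 at -2.56 to -2.49. The median gene itself was higher at 5 min than at starvation on the spike-in scale, as given above. A gene called lower at 5 min therefore fell relative to the median gene and not necessarily against the spike-in.

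**Figure D5:**
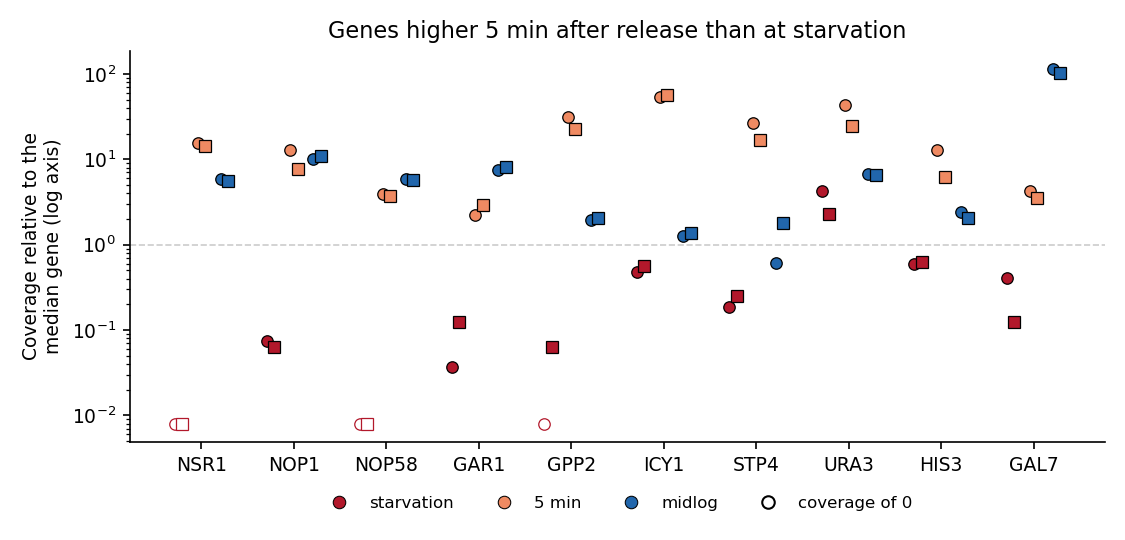
Coverage relative to the median gene (log axis, dashed line at 1) of 10 genes called higher at 5 min than at starvation, in the libraries of starvation, 5 min and midlog; circles are replicate 1, squares replicate 2, and open symbols are coverage of 0, drawn at 0.008. NSR1 goes from 0 to 15.7 and 14.3, above its midlog level, while GAL7 reaches 4.29 and 3.49 and stays far below its midlog level.

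The promoter motifs were counted, as a description with no test, over windows from 250 bases before to 50 after the start and on both strands. The window reaches into the coding sequence, so some counted matches overlap it, such as PAC at -1 in ERG6. PAC lay in 34.7% of 907 promoters of genes higher at 5 min, against 19.9% of all promoters, and RRPE in 25.7% against 9.28%. In the ribosome biogenesis list PAC lay in 77 of 83 and RRPE in 67 of 83. The stress response element lay in 28.1% of 1453 promoters of genes higher in starved than growing cells, in 17.0% of 1684 of genes lower, and in 21.9% of all. Among genes lower at 5 min than at starvation it lay in 32.3%.

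Growing cells before and after starvation gave almost no calls. Midlog against the mean of 1 and 2 doublings gave no gene higher and 1 lower with limma (0.019%), and 115 genes at an unadjusted p under 0.05. That gene was IRC7, a beta-lyase gene, at 0.16 and 0.30 at midlog, 1.46 and 1.31 at 1 doubling and 1.24 and 0.87 at 2 doublings (-2.03 ± 0.22, adjusted p = 0.0368). Without single libraries this count ran from 0 to 2, and leaving out midlog replicate 1 moved the adjusted p of IRC7 to 0.70.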

How the data were processed

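Polyadenylated RNA of each library was made with a stranded Illumina kit, and Schizosaccharomyces pombe total RNA was mixed in at a mass ratio of 10 to 1, per the labels' protocols. Which of 2 kits served which library is not given in the sources used here, nor are the aligner and the Saccharomyces cerevisiae build. For S. pombe the build was ASM294v2 and the reads passed through CASAVA 1.7.0, per the submitters' processing notes. For each of 6319 coding sequences the authors deposited a log2 value, the median coverage by reads after scaling to the spike-in. Within each library all unlogged values were whole multiples of 0.5 of 1 read's value (relative tolerance 0.001). In each library 1 further value stands for coverage of 0 and was set to 0.

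Each library was divided by its median over the genes tested, and limma 3.58.1 (R 4.3.3) was fitted to log2 of this ratio plus 0.1, with 1 mean per time, a mean-variance trend and Benjamini-Hochberg adjustment. A gene was tested where its coverage was over 0.15 of the library's median over all 6319 genes in at least 4 libraries of the fit. The spike-in scale used log2 of the value plus 0.03. These are coverage values and not counts, so no count test was run. Python 3.11.15, pandas 2.3.3, numpy 2.4.6, scipy 1.17.1 and matplotlib 3.10.9 did the rest. Promoters came from RefSeq's R64, to which 5694 genes matched by locus tag, and the GAL10 and GAL2 stretches were placed after the data were seen.

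Replicates are labelled only as repeats, so p-values measure the spread between these libraries, which may be technical. Members and gene lists were chosen with earlier results of these data known. Named genes were the 12 largest rises and falls without overlap, up to 4 called members per list and members called against their list's median, all galactose, SIR and marker genes, the 8 largest differences from the wild types each way and the 5 largest each way for 5 min and midlog. Not every gene so named is printed.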

Additional observations from a re-analysis of the deposited data

Results flagged for a closer look

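In 5 of 86 groups of libraries examined 1 library lay apart from the others, and chance gives about 1 in 20. These were ACS1 in growing cells, highest in midlog replicate 1 at 0.098 of the median gene, GRE1 in growing cells, highest in midlog replicate 2 at 1.24, and GAL3 in growing cells, highest in 1 doubling replicate 1 at 7.42. In starved cells PCL10 was lowest in 5 min replicate 2 at 2.12, and ADE2 was highest in starvation replicate 2 at 0.75.

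The log2 change from growing to starved differed from that of the wild types, tested with limma as an interaction, most strongly downward for GCY1 (-10.04), GAL2 (-9.55), GAL7 (-8.50), GAL10 (-8.36), GAL1 (-8.06), DMO1 (-7.34), FRE7 (-7.18) and ATP2 (-7.0). It differed most strongly upward for CTA1 (6.36), ADY2 (6.31), HMRA1 (6.25), ALT2 (4.92), HXT1 (4.92), MIH1 (4.76), FAA4 (4.64) and SRL4 (4.63). HXT1 did not pass the filter on low values within oeSir3, so no rise was called there and its difference is not one. It was at 0 in all growing oeSir3 libraries, so its value depends on the 0.1 added to each level. The same holds for CTA1, ADY2 and HMRA1, which were near 0 in growing oeSir3 libraries. Genotype, background and sugar cannot be told apart in these differences.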

How the results depend on the processing

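The counts of starved against growing genes moved most with the scale, to 110 higher and 4835 lower on the spike-in scale. There the difference from the wild types gave 43 higher and 3030 lower. That difference gave 708 higher when centred on the upper quartile and 644 with 5 min alone. With wild-type replicate 2 alone it gave 1177 higher and 1175 lower. Midlog against the doublings gave 5 lower with 0.03 added, 0 without the filter and 4 with the replicate block, and from 0 to 2 with single libraries left out. Leaving out single libraries gave 1416 to 1524 higher and 1689 to 1731 lower for starved against growing cells, 835 to 942 and 1080 to 1379 for 5 min against starvation, and -4.32 to -3.52 for the median gene.

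On the spike-in scale these genes had the opposite sign from the median-gene scale: SIR1 (-1.93), SIR2 (-3.01), SIR4 (-2.24), MTH1 (-2.72), PCL10 (-2.74), GAL4 (-2.80), BAR1 (-2.42), MFA1 (-3.34), URA3 (-3.57), CAN1 (-3.49), ADE2 (-2.86), GLK1 (-2.74), KGD1 (-2.44), SDH2 (-2.23), COX13 (-2.54), CYC7 (-1.84), IGO1 (-0.71), IGO2 (-0.76), SUI1 (-2.56), NOP16 (-1.94), PSF2 (-1.91), ASE1 (-1.60), CHS1 (-1.61), HMG2 (-1.07), URA10 (-1.13) and MET4 (-1.09). URA3 was at -1.42 with starvation alone and HIS3 at 1.80 with 5 min alone. CLB2 was at 0.18 when the value standing for coverage of 0 was kept as deposited.

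Libraries with the same replicate number deviated together at all 10 pairs of times, at 0.260 to 0.697 in 9 of them, but starvation against 2 doublings gave 0.062. That is under the 0.1 asked of every pair, so the numbers were not taken as pairing the libraries. With the replicate block 1490 genes were higher and 1721 lower in starved cells, 956 and 1363 at 5 min against starvation, and 1272 and 1270 differed from the wild types. The starvation libraries were the shallowest, so low genes there carry the largest counting error.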
